A study of Mus musculus with 4 samples.

Results

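The genes described here carry chloride, bicarbonate and sodium across the intestinal epithelium. They are Cftr, Clcn2 and Ano1 (chloride channels), Slc26a3 and Slc26a6 (anion exchangers), Slc12a2 and Slc4a4 (basolateral uptake of chloride and of bicarbonate), and Slc9a3 and Slc9a2 (Na+/H+ exchangers). Members were the probe sets whose annotated symbol was 1 of these 9 names, of 18194 genes named by at least 1 probe set of their own on the array. The 9 genes had 21 probe sets of 45101, of which 18 were kept because they reached the median signal of 1 or more of the arrays. The other 3 probe sets (1 each for Slc26a3, Slc4a4 and Slc9a3) fell short of it on all 4. All 9 genes had at least 1 kept probe set, as did 12259 genes of the whole array, and 8 of the 9 had a probe set at or above the 75th percentile on all 4 arrays. Ano1 was the exception.

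Gene expression was measured in the entire small intestine of wild type (WT) mice and of mice with the cftr-tm1Unc null allele (CF), all of the C57BL/6 strain by the labels (C57BL/6J in the study's methods). Every mouse, treated or not, lived on the liquid diet Peptamen from weaning, a diet given because CF mice otherwise obstruct. The treated mice were gavaged daily for 2 weeks with 10 µg/kg lubiprostone in 100 µl Peptamen, and whether control mice were gavaged, the age of the mice and the sexes in each RNA pool were not given in the sources used here. RNA was pooled in equal amounts within each group and each pool was hybridized to 1 array. The groups are WT control, WT + lubiprostone, CF control and then CF + lubiprostone, and where 4 values stand in a row below, they follow this order. By the series design the pools held 10, 7, 10 and 8 mice, though the study's methods give fewer for WT control. With 1 array per group there is no spread between replicates, so no test was made and each difference below is the ratio of signals on a pair of arrays. The only error that could be given is the SD between probe sets of the same gene, which lies within the arrays and holds nothing of the spread between mice or pools. Over all genes with several kept probe sets the median of this SD was 0.24 (log2) for CF over WT control, 0.20 and 0.26 for lubiprostone in WT and in CF mice, and 0.23 between the treated pools.

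The array medians were 124, 123, 109 and 119.6 (signals in arbitrary units). All 9 pan-epithelial markers, among them Epcam, Cdh1 and Krt8, were above the median on all 4 arrays, with sums of 95746, 101499, 114925 and 112054. In CF over WT control 7 of them were higher and 2 lower, with a median log2 ratio of 0.25 against -0.02 for all genes. With the arrays scaled to equal medians it was 8 and 1, with 0.43 against 0.16. Xist, expressed from the inactive X chromosome of females, had signals of 476, 1587, 1095 and 1716, and Eif2s3y, on the Y chromosome, 1242, 829, 884 and 805. The pools therefore differed in these sex markers, and the part of sex in the results was not tested. In RNA from whole tissue, fewer cells of a type and less RNA per cell cannot be told apart.

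In the secreting epithelium, the Na+/K+ pump keeps cell sodium low, and the basolateral Na+/K+/2Cl- cotransporter NKCC1 (Slc12a2) uses that gradient to load the cell with chloride. Chloride then leaves through apical channels, above all the cAMP-activated channel CFTR, while K+ channels hold the driving force, and sodium and water follow between the cells. Bicarbonate enters with sodium through NBCe1 (Slc4a4) and leaves through CFTR or the apical exchangers DRA (Slc26a3) and PAT1 (Slc26a6). Absorption runs the other way: NHE3 (Slc9a3) takes up sodium in exchange for protons, coupled to chloride uptake by the SLC26 exchangers. In cystic fibrosis CFTR is lost, and the lumen of the gut is dehydrated and acidic. Lubiprostone is a bicyclic fatty acid that opens chloride channels of the gut, and ClC-2 (Clcn2), CFTR and prostaglandin receptors have all been put forward as its targets.

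The start regions of Cftr, Slc9a3 and Slc26a3 are shown because Cftr and Slc9a3 were the members with bright probe sets that differed most between the genotypes and Slc26a3 was the member with the highest ratio under lubiprostone in CF mice. Each sequence runs 5′ to 3′ from 250 bases before to 50 bases after the annotated start, from RefSeq on GRCm38.p6, at chr6:18170437-18170736 on the plus strand for Cftr, chr13:74121163-74121462 on the plus strand for Slc9a3 and chr12:31437969-31438268 on the plus strand for Slc26a3. Capitals mark matches, on either strand, to 1 of 5 searched motifs: the TATA box TATAAA, the GC box GGGCGG, the CCAAT box CCAAT, the cyclic AMP element TGACGTCA and the HNF1 motif GTTAAT.
Cftr: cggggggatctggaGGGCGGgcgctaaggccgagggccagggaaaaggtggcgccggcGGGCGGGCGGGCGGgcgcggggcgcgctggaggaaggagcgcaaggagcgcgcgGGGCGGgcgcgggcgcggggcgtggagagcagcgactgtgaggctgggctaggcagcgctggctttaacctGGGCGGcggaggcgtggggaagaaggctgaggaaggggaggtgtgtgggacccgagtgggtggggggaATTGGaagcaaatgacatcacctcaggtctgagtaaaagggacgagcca
Slc9a3: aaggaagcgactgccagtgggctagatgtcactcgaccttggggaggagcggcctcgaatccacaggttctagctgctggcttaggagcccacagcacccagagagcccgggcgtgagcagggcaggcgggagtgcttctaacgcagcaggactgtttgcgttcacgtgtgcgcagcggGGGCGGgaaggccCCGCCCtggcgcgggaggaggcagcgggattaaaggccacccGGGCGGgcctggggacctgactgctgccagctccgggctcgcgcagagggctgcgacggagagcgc
Slc26a3: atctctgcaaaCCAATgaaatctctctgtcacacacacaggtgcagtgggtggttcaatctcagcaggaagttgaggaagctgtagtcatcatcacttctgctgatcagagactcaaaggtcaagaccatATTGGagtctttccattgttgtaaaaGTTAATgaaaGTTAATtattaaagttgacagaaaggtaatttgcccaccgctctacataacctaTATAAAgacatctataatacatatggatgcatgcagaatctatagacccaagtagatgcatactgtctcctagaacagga
The Cftr region held 6 GC boxes and 1 CCAAT box at 71.3% GC, and the Slc9a3 region held 3 GC boxes at 68.7% GC. The Slc26a3 region was of another kind, with 39.3% GC, 1 TATA box, 2 CCAAT boxes and 2 HNF1 motifs. A window was found for 7 of the 9 members (8 windows, since Slc4a4 had 2 starts) and not for Slc12a2 and Slc9a2. Of the 8 windows, 6 held a GC box and 5 a CCAAT box, against 35.7% and 37.4% of all 32851 windows, 1 held a TATA box and 1 an HNF1 motif, against 13.6% and 7.1%, and 0 held the cyclic AMP element, against 1.79%. The median GC content of all windows was 52.7%. A match is a run of letters and no evidence of a bound factor.

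The genotype comparison asked how the transport genes differ between CF and WT intestine before treatment. Cftr, the anion channel that is disrupted in these mice, was lower and Slc9a3 was higher in CF, and these were the only members with a bright probe set past 2-fold. Ano1 was also past 2-fold, from signals near or below the array median. The other 6 members lay within 1.29-fold of WT control. Over the 9 members 4 were higher and 5 lower, with a median log2 ratio of -0.07 against -0.02 for all genes. Scaling the arrays to equal medians adds 0.18 to every log2 ratio of this comparison and makes this 5 higher and 4 lower, with Clcn2 at 0.11. Past 2-fold, 2 members were higher (Slc9a3 and Ano1) and 1 lower (Cftr), where 2.8% of the 11806 genes counted were higher and 4.84% lower. Past 3-fold, 1 was higher (Ano1) and 1 lower (Cftr), against 1.16% and 1.82% of genes.

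**Figure D1:**
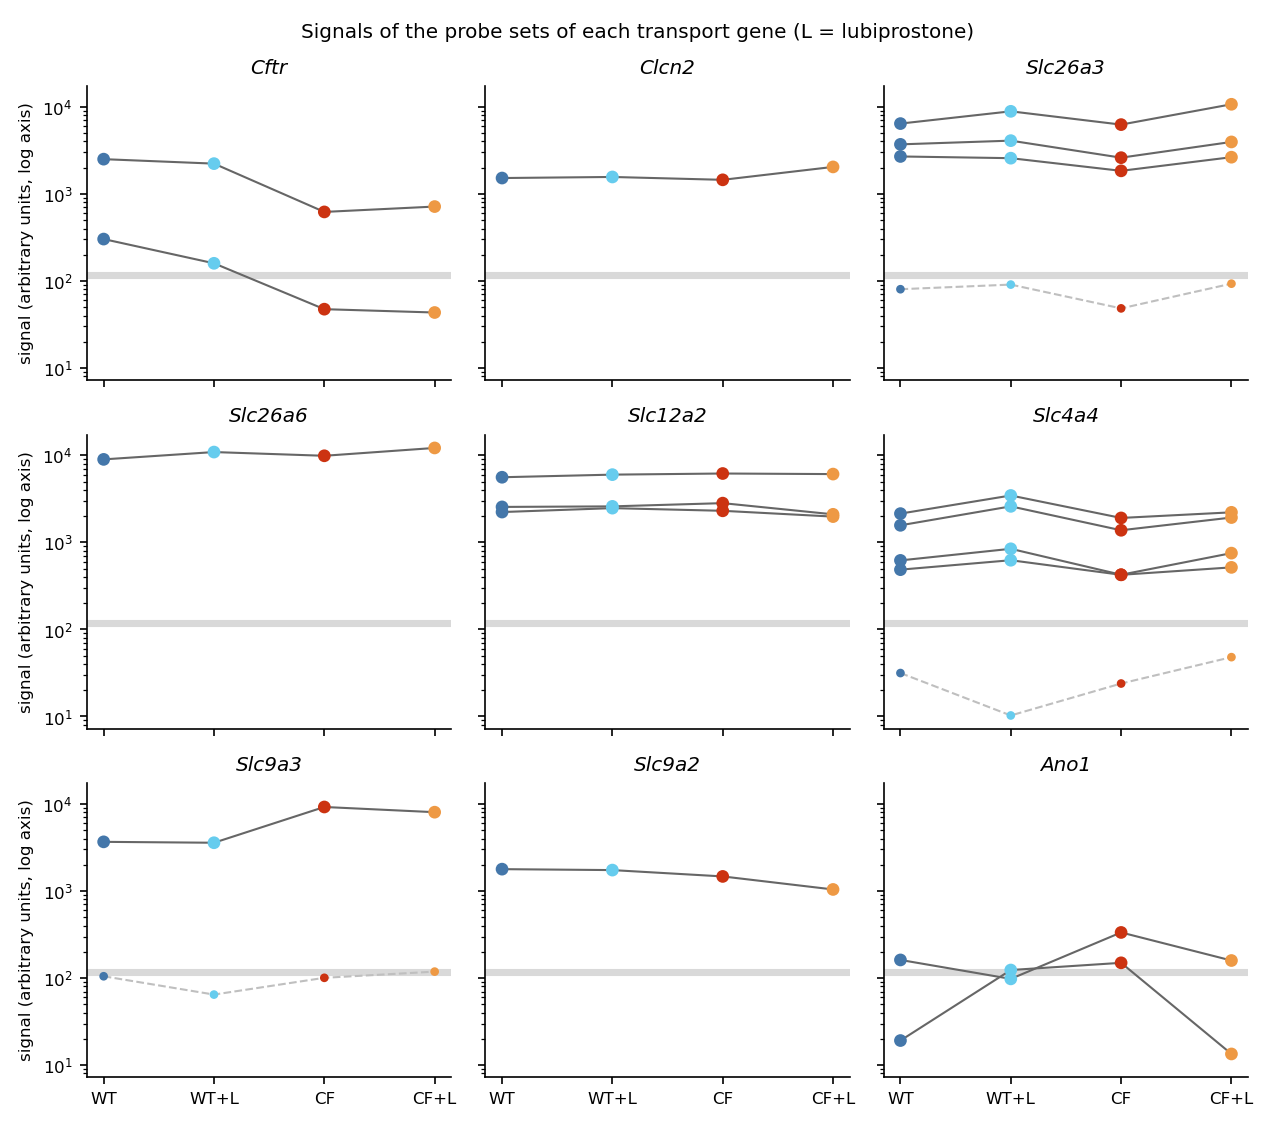
Signals (arbitrary units, log axis) of every probe set of the 9 genes on the 4 arrays, with solid lines for kept probe sets, dashed lines for those below the median on all arrays and grey shading where the array medians lie. Cftr drops on both CF arrays, the bright Slc9a3 probe set stands at 9237 and 8049 on the CF arrays against 3672 and 3586 on the WT arrays, and the Ano1 probe sets lie about the shading.

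Cftr was read by 2 probe sets. 1420579_s_at had signals of 2505, 2226, 620.2 and 715. 1427767_a_at had 302, 159, 47.3 and 43.3, and its signals on the CF arrays were below the array medians. Both CF arrays were below both WT arrays for both probe sets. Where these probes lie relative to the disrupted exon was not given in the sources used here. Between the untreated pools, the first probe set was 4.04-fold lower in CF, and the second was at least 2.77-fold lower with the dim signal set to the array median. The log2 ratio of the gene was -2.35 ± 0.47 (SD, 2 probe sets), or at least 3.34-fold lower, and 0.712% of genes had a lower ratio. The brighter probe set kept signals above the 75th percentile on the CF arrays, and its suffix marks probes that can match more than 1 transcript.

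Clcn2, which encodes the channel ClC-2, was read by 1 probe set with signals of 1520.4, 1564, 1450.1 and 2040.4. The 2 controls and the treated WT pool lay close together, with CF control 1.05-fold lower than WT control (log2 ratio -0.07). The treated CF pool was the high one.

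Ano1, the calcium-activated chloride channel, gave 2 probe sets that did not move together. 1459713_s_at had 161, 97.8, 334 and 159, and 1426571_at had 19.1, 124, 149.6 and 13.4. CF control was the highest array for both. The gene's log2 ratio of CF over WT control was 2.01 ± 1.36 (SD, 2 probe sets), and the fold was at least 1.58 with signals below the median set to it. Ano1 is also made in the pacemaker cells of the gut muscle, the interstitial cells of Cajal. Of their 4 listed markers 1 was kept, Kit, with 348, 297, 298 and 237. Kit is on the mast cell marker list too, so its signal is not particular to the pacemaker cells. Smooth muscle markers (Acta2, Actg2, Myh11, Des, Tagln, Cnn1 and Synm) had sums of 18380.2, 20854, 28589 and 19069, with 7 of 7 higher in untreated CF than in untreated WT, and their part in the Ano1 ratio was not tested.

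Slc26a3, or DRA, exchanges chloride for bicarbonate at the apical membrane. Its 3 kept probe sets had signals of 6421, 8883, 6250.3 and 10702 (1429467_s_at), 3706, 4089, 2606 and 3951 (1421445_at), and 2691, 2571, 1839 and 2639 (1427547_a_at). CF control was the lowest array in all 3. The ratio of CF over WT control was -0.37 ± 0.28 on the log2 scale (SD, 3 probe sets), 1.29-fold lower, with single probe sets between -0.55 and -0.04.

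Slc26a6, or PAT1, is the exchanger that also carries oxalate. Its single probe set had signals of 9002, 10928, 9902 and 12184. Each treated pool was above its control, and CF control was 1.1-fold above WT control (log2 ratio 0.14).

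Slc12a2 had 3 probe sets with little movement. The brightest, 1417622_at, had 5612, 6013, 6194 and 6101, the second, 1448780_at, 2559, 2597, 2829 and 2105, and the third, 1417623_at, 2235, 2479, 2309 and 1982. The ratio of CF over WT control was 0.11 ± 0.06 (log2, SD, 3 probe sets), and all 3 probe sets were slightly higher in CF control.

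Slc4a4, the electrogenic sodium bicarbonate cotransporter, had 4 kept probe sets. The brightest, 1434096_at, had signals of 2144, 3464, 1912 and 2218, and 1452071_at had 1573, 2598, 1380.1 and 1932. The other 2 had 622, 845, 425 and 754 (1426432_a_at) and 487, 625, 425 and 517 (1421225_a_at). In all 4 probe sets CF control was the lowest array and WT + lubiprostone the highest. CF control was 1.21-fold below WT control, with a log2 ratio of -0.27 ± 0.18 (SD, 4 probe sets).

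Slc9a3, the main sodium absorbing exchanger of the villus, was read by 1 bright probe set, 1441236_at, with signals of 3672, 3586, 9237 and 8049. The 2 CF arrays were well apart from the 2 WT arrays, and treatment made little difference within either genotype. CF control was 2.52-fold above WT control (log2 ratio 1.33), and 1.63% of genes had a higher ratio. The second probe set, 1432771_at, had signals of 105, 64.5, 101 and 119, below the median on every array, and showed no such step. The step thus rests on 1 probe set, and the mean of both had a log2 ratio of 0.64, short of 2-fold.

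Slc9a2, or NHE2, had signals of 1783, 1739, 1471 and 1042 on its single probe set. The treated CF pool was the lowest, and CF control was 1.21-fold below WT control (log2 ratio -0.28). The 2 Na+/H+ exchangers therefore lay on opposite sides of WT control in CF.

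Villus enterocyte markers were lower in CF for 10 of 11 genes before treatment (7 of 11 with equal medians), with sums of 326270.0, 349164, 255818 and 293429. Slc9a3 is made by villus cells, and its bright probe set was higher on the CF arrays. Ileal markers were lower for 5 of 5 genes (4 of 5 with equal medians), with sums of 32008, 35594, 12485 and 14115. Duodenum and jejunum markers were higher for 3 and lower for 3 of 6 genes, with sums of 74688, 83036, 25132 and 28340.0. Brunner gland and gastric gland markers, with sums of 18253, 35301, 9009 and 18335, were higher for 6 of 6 genes in treated than in untreated WT. In CF + lubiprostone over CF control 3 of the 6 were higher and 3 lower, and in CF over WT control also 3 and 3. Proliferating crypt markers had sums of 16254, 15260.5, 17539.9 and 13668. In CF + lubiprostone over CF control 1 of these 9 was higher and 8 were lower (0 and 9 with equal medians). Crypt stem cell markers had sums of 17898, 17325, 18124 and 10758. In the same comparison 2 of these 6 were higher and 4 lower, and between the treated pools 0 were higher and 6 lower. Goblet cell markers had sums of 124219, 133574, 160625 and 143903, and Paneth cell markers 103035, 124882, 136961 and 131013. Mast cell markers had sums of 849.6, 594, 10208 and 1038, highest on the CF control array. In CF over WT control 4 of these 5 genes were higher and 1, Kit, was lower. Between the treated pools, CF over WT, 3 were higher and 2 lower. The part of these markers in the ratios of the transport genes was not tested.

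**Figure D2:**
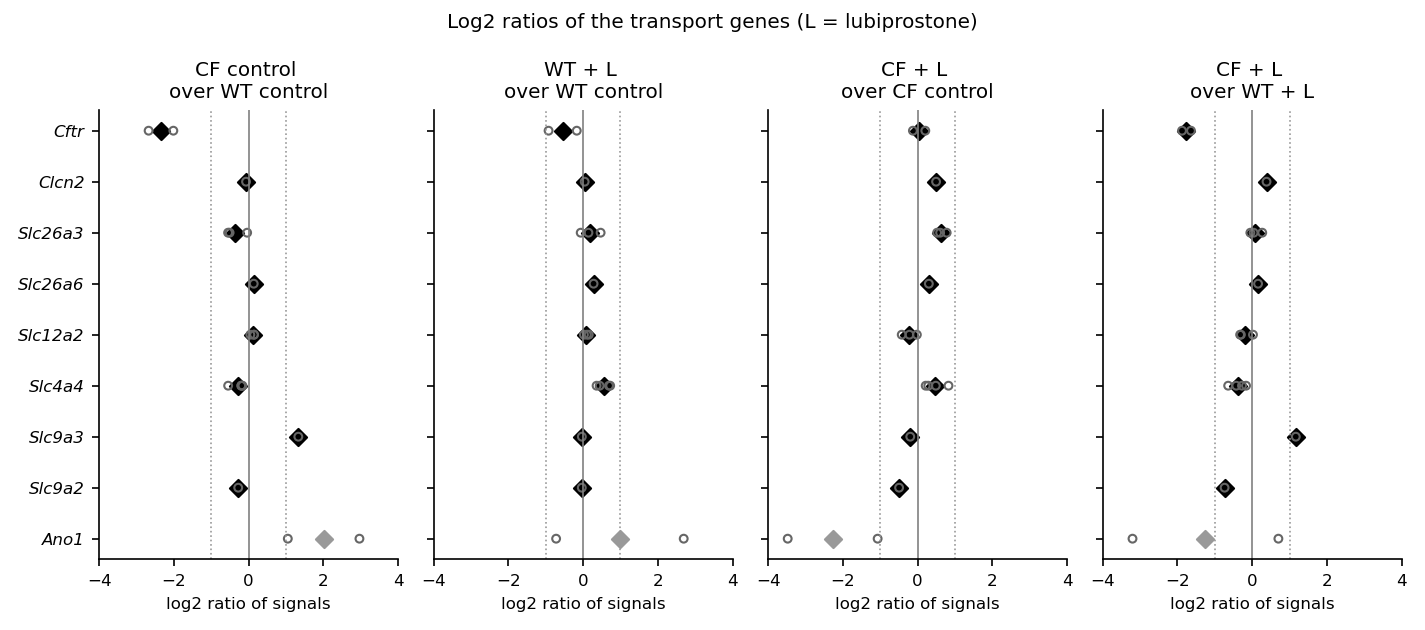
Log2 ratio of signals for the 9 genes in 4 comparisons, with open circles for single probe sets, diamonds for their mean (grey where the gene had no bright probe set) and dotted lines at 2-fold. Slc9a3 lies at 1.33 and 1.17 in the genotype comparisons, Cftr at -2.35 and -1.76, and 8 of the 9 genes lie within 2-fold in both lubiprostone comparisons.

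The lubiprostone comparison in WT mice asked what the drug does where CFTR is present. No member reached 2-fold (0 higher and 0 lower, where 1.35% of 11691 genes were higher and 1.42% lower), and 6 members were higher and 3 lower, with a median log2 ratio of 0.09 against -0.00 for all genes. Slc4a4 had the highest ratio among members with bright probe sets, 1.47-fold or 0.55 ± 0.18 on the log2 scale (SD, 4 probe sets), with all 4 probe sets higher, and 4.88% of genes had a higher ratio. Slc26a6 was 1.21-fold higher. Cftr had a log2 ratio of -0.55 ± 0.53 (SD, 2 probe sets), made of -0.17 for the bright probe set and -0.93 for the dim one. Slc9a3 (-0.03), Slc9a2 (-0.04) and Clcn2 (0.04) lay close to 0. For Ano1 the probe sets went opposite ways, at 2.69 and -0.72, and with signals below the median set to it the gene's linear ratio was 0.87. Smooth muscle markers were higher in 7 of 7 genes in this comparison, with a median log2 ratio of 0.19.

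The lubiprostone comparison in CF mice asked what the drug does where CFTR is lost. Among members with bright probe sets none reached 2-fold, with the highest ratios for Slc26a3, Clcn2 and Slc4a4 and the lowest for Slc9a2. Of all 9, 5 were higher and 4 lower (4 and 5 with equal medians, Cftr then at -0.09), with a median log2 ratio of 0.04 against 0.02 for all genes. At 2-fold 0 members were higher and 1 was lower (Ano1), where 3.2% and 2.15% of the 11795 genes counted were, and Ano1 was also past 3-fold, where 0.738% of genes were lower. This comparison shares the CF control array with the genotype comparison, and the WT comparison shares WT control with it, so a departure of the CF control array enters a pair of ratios with opposite sign and one of the WT control array with the same sign.

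Slc26a3 was 1.55-fold higher in the treated than in the untreated CF pool, with a log2 ratio of 0.63 ± 0.13 (SD, 3 probe sets) and single probe sets between 0.52 and 0.78. It had a higher ratio than 91.9% of genes, and against WT control the treated CF pool was 1.2-fold higher. Clcn2 was 1.41-fold higher (log2 ratio 0.49), above 87.4% of genes, on its 1 probe set. Slc4a4 was 1.37-fold higher, at 0.45 ± 0.27 (SD, 4 probe sets), with all 4 probe sets higher, and Slc26a6 was 1.23-fold higher (0.30). For these 4 genes the treated CF pool was above the untreated one in each kept probe set.

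Slc9a2 was 1.41-fold lower (log2 ratio -0.50), and 8.66% of genes had a lower ratio. Slc12a2 was 1.17-fold lower, at -0.22 ± 0.20 (SD, 3 probe sets), with single probe sets between -0.43 and -0.02. Slc9a3 was 1.15-fold lower (-0.20) and remained 2.19-fold above WT control. Cftr was at 0.04 ± 0.23 (SD, 2 probe sets). Ano1 had a log2 ratio of -2.27 ± 1.70 (SD, 2 probe sets), or at least 1.62-fold lower when dim signals were raised to the median, and smooth muscle markers were lower in 7 of 7 genes beside it.

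The response to lubiprostone in CF mice minus that in WT mice, on the log2 scale, was 0.59 for Cftr, 0.45 for Clcn2, 0.45 for Slc26a3, 0.02 for Slc26a6, -0.10 for Slc4a4, -0.16 for Slc9a3, -0.31 for Slc12a2, -0.46 for Slc9a2 and -3.26 for Ano1. Slc26a6, Slc4a4, Clcn2 and Slc26a3 had ratios above 0 in both genotypes. In WT and then CF mice the ratio was 0.04 and 0.49 for Clcn2 and 0.18 and 0.63 for Slc26a3. It was 0.28 and 0.30 for Slc26a6 and 0.55 and 0.45 for Slc4a4. For Slc26a3 in WT mice the SD was 0.27 (3 probe sets), with 2 probe sets higher and 1 lower. None of the differences between the genotypes could be tested. Clcn2 and Slc26a3 lay above 82.5% of genes each in this measure, and Slc9a2 above 12.5%.

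Between the 2 treated pools, CF over WT, 4 members were higher and 5 lower, with a median log2 ratio of -0.20 against 0.00 for all genes. Past 2-fold were 1 higher (Slc9a3, 2.24-fold) and 2 lower (Cftr and Ano1), where 3.22% of 11792 genes were higher and 3.41% lower. The Ano1 value (-1.25) averages probe sets at -3.20 and 0.70, and its direction turned with the brighter probe set alone (0.70) and with dim signals raised to the median (0.16). Past 3-fold was 1 lower (Cftr), where 1.25% of genes were. The log2 ratio of Cftr was -1.76 ± 0.17 (SD, 2 probe sets), 3.11-fold lower in the bright probe set. These arrays are other pools than the controls, and Slc9a3 was high and Cftr low on the CF side in both pairs. Slc9a2 was 1.67-fold lower (-0.74), and Clcn2 was 1.3-fold higher (0.38).

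Pancreatic acinar markers moved with treatment. Their sums were 26897, 2518, 27183 and 6472. In each lubiprostone comparison 7 of 7 genes (Cela1, Cela2a, Cela3b, Cpa1, Cpb1, Cel and Ctrb1) were past 2-fold lower. Of all genes 1.42% were in WT mice and 2.15% in CF mice. The median log2 ratios of the list were -3.41 in WT and -2.12 in CF mice. The pancreas also makes Cftr, Slc4a4, Slc12a2 and Slc26a6. Under treatment in WT and in CF mice, Cftr had log2 ratios of -0.55 and 0.04 and Slc4a4 of 0.55 and 0.45. Slc12a2 had 0.09 and -0.22, and Slc26a6 had 0.28 and 0.30. Of 5 listed markers of pancreatic and bile ducts 2 were kept, Sox9 and Krt7, with sums of 1208, 1039, 2547 and 1798. Whether their signal came from the pancreas was not tested. In the lubiprostone comparisons in WT and in CF mice, the brighter Ano1 probe set was at -0.72 and -1.07 and the dim one at 2.69 and -3.48. The part of pancreatic RNA in the ratios, that of Ano1 included, was not tested.

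**Figure D3:**
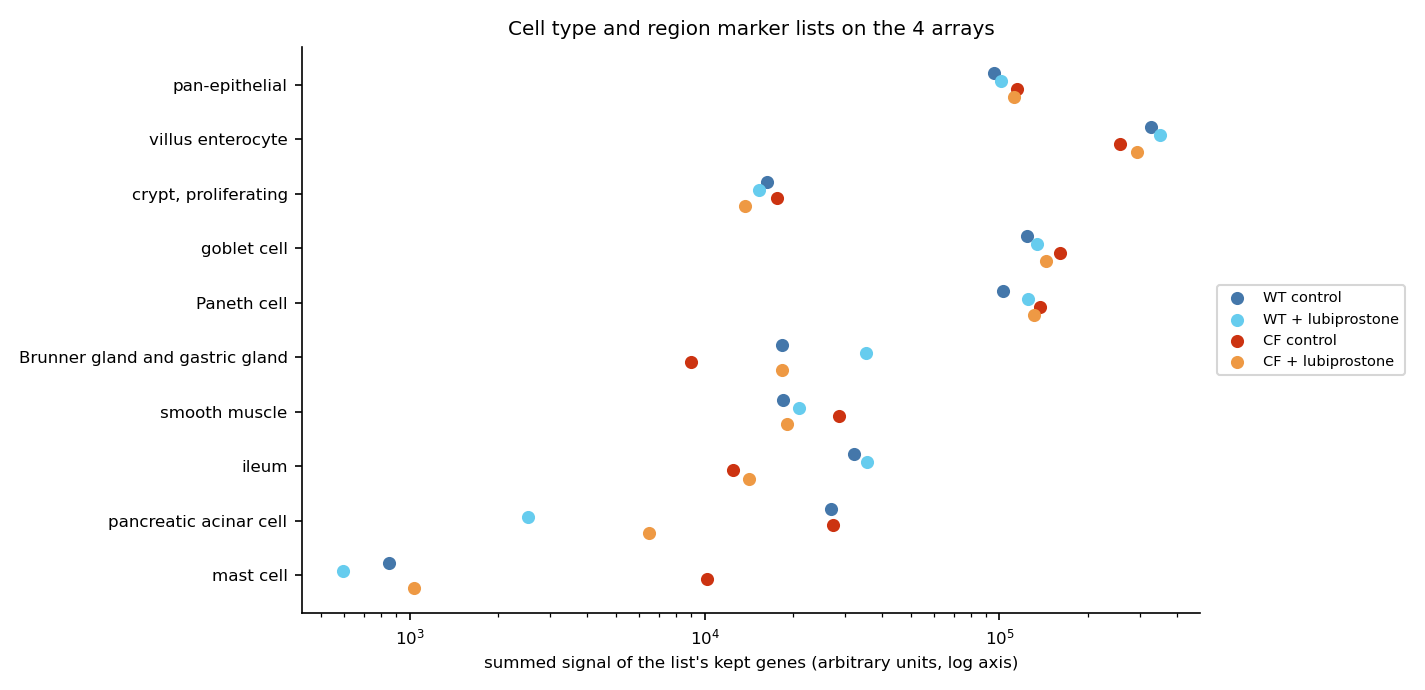
Summed signals (arbitrary units, log axis) of the kept genes of 10 marker lists on the 4 arrays, 1 point per array. The pan-epithelial sum ranges from 95746 in WT control to 114925 in CF control. The acinar sum is 2518 and 6472 in the treated pools against 26897 and 27183 in the controls.

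The partners and relatives of the 9 genes were described from 13 lists with 124 other genes, of which 107 were named on the array and 72 were kept. In CF over WT control 22 of the 72 were higher and 50 lower, with a median log2 ratio of -0.22 against -0.02 for all genes. With equal array medians it was 32 and 40, with a median of -0.04 against 0.16. Past 2-fold were 0 higher and 8 lower of 69 counted, beside 2.8% and 4.84% of all genes. Those 8 were Pdzk1, Sgk1, Ezr, Guca2b and Ano6, which were bright, and Slc4a8, Slc12a9 and Adcy3, which were dim. Between the treated pools, 34 were higher and 38 lower (39 and 33 with equal medians), with 3 and 3 of 69 past 2-fold, beside 3.22% and 3.41% of all genes. Under lubiprostone 34 were higher and 38 lower in WT mice (median -0.03), with 1 and 3 of 69 past 2-fold, beside 1.35% and 1.42% of all genes. In CF mice 44 were higher and 28 lower (median 0.05), with 4 and 1 of 70 past 2-fold, beside 3.2% and 2.15%. With equal medians these turned to 31 higher and 41 lower, with 2 and 2 past 2-fold.

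The scaffold list holds PDZ scaffolds of CFTR and NHE3 (Slc9a3r1, Slc9a3r2, Pdzk1, Pdzd3), ezrin and brush border myosin (Myo1a), and also proteins that traffic or regulate these transporters (Gopc, Snx27, Ahcyl1 and Myo6). In CF over WT control 1 of its 10 kept genes was higher (Myo6) and 9 were lower. The median was -0.38 against -0.02 for all genes, and -0.20 against 0.16 with equal medians. Of the 10, 2 were past 2-fold lower, beside 4.84% of all genes. Pdzk1, a PDZ domain scaffold of NHE3, CFTR and SLC26 exchangers, had signals of 6128, 5822, 819 and 831. It was lower in CF by 7.48-fold without and by 7.01-fold with treatment, so the low signal was seen in both CF pools. Slc9a3r1 (NHERF1), the brightest scaffold on the list, was 1.37-fold lower in CF control (-0.45), with all 3 probe sets lower.

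Ezr encodes ezrin, which links these scaffolds to actin. Its main probe set had 13700.5, 16266, 9322 and 15429.8 and the other, 1456725_x_at, 1169, 447, 224 and 565. Both were lowest in CF control, by -0.56 and -2.38 on the log2 scale, so the 2.77-fold of the gene depends on the dimmer probe set. Both were higher in treated than in untreated CF, by 0.73 and 1.34.

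Sgk1, a kinase that raises the activity of NHE3 and of the epithelial sodium channel, had 8162, 8529, 1994 and 10327. Untreated CF was the low array, 4.09-fold below untreated WT and 5.18-fold below treated CF. Guca2b, which encodes uroguanylin, a peptide that raises cyclic GMP and fluid secretion and slows NHE3, had 22126, 22703, 8321 and 18532. Its signal in untreated CF was 2.66-fold below untreated WT, and treated CF stood 2.23-fold above untreated CF. In both genes the CF control array alone was low, and that array stands in both ratios. Guca2a (guanylin) was at -0.24 and 0.06 in these comparisons.

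Prkg2, the kinase downstream of cyclic GMP, had log2 ratios of -0.24 in CF over WT control, 0.22 in WT mice under treatment and 0.79 in CF mice under treatment, with all 3 probe sets higher in the last. Ano6, a lipid scramblase of the anoctamin family, had signals of 8015, 7556, 3618 and 4476 and of 1876, 1667, 741 and 937 on its probe sets. It was 2.37-fold lower in CF control, and both probe sets were lower on both CF arrays than on both WT arrays.

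**Figure D4:**
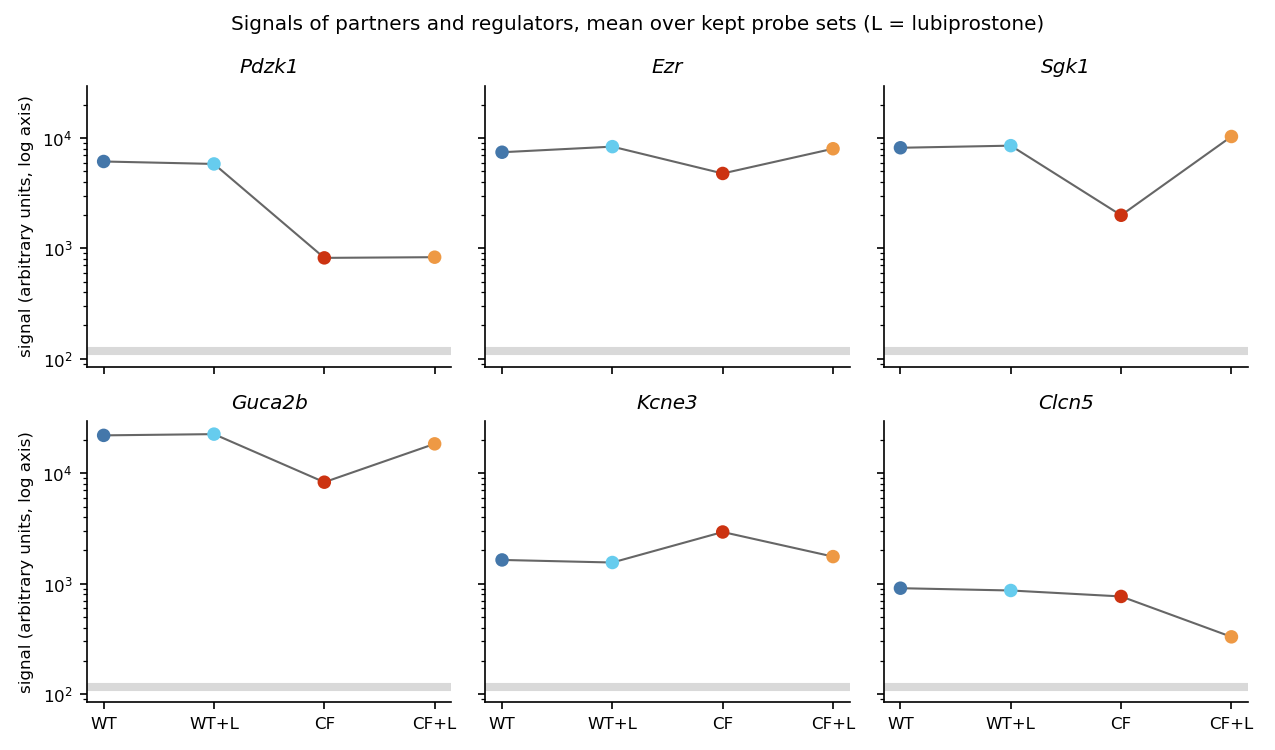
Mean signals (arbitrary units, log axis) over the kept probe sets of Pdzk1, Ezr, Sgk1, Guca2b, Kcne3 and Clcn5 on the 4 arrays, with the array medians shaded grey. Pdzk1 is low on both CF arrays (819 and 831), while Sgk1 and Guca2b are low in CF control alone (1994 and 8321).

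Of the K+ channels of chloride secretion, 7 of 8 kept genes were higher and 1 lower in CF over WT control, with a median of 0.40. None was past 2-fold (1 higher with equal medians), where 2.8% of all genes were higher and 4.84% lower. In CF + lubiprostone over CF control 2 were higher and 6 lower (0 and 8 with equal medians), with a median of -0.19. Past 2-fold lower was 1, the dim Kcnj16 (2 with equal medians), beside 2.15% of all genes. Kcne3, the subunit that keeps the cAMP-activated K+ channel of the crypt open, had 1641, 1555, 2941 and 1759 and was 1.79-fold higher in CF control. The channel's pore gene, Kcnq1, was at 0.31, the calcium-activated channel Kcnn4 at 0.48 and Kcnk1 at 0.66 with both probe sets higher. CF control was the highest array for Kcne3, Kcnn4 and Kcnq1.

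The ClC family had 7 of 7 kept genes lower in CF control, Clcn2 among them, with a median of -0.17 and none past 2-fold. The median of all genes was -0.02. With equal medians 3 of 7 were lower, with a median of 0.01 against 0.16 for all genes. Clcn3 was at -0.03. Clcn5, an endosomal chloride/proton exchanger, was at -0.47 with all 4 probe sets lower, and at -0.63 in CF + lubiprostone over CF control, where 1 probe set (1420295_x_at) had 2182 and 602 in these pools and gave most of the difference. Of the anion exchanger relatives, Slc26a2, a sulfate transporter, was 1.79-fold lower in CF control with all 3 probe sets lower. Slc4a2, the basolateral chloride/bicarbonate exchanger, was at 0.15, and Slc12a7, a K+/Cl- cotransporter, at -0.13.

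The sodium pump subunit Atp1b1 was at -0.05 in CF over WT control and -0.07 under lubiprostone in CF mice. The second value includes a dim probe set at -0.59, and the 4 bright ones lay between -0.15 and 0.22, with no common direction. The mean signals were 19572, 21667, 18963 and 19163. Its relative Fxyd3, a regulator of the pump, was 1.49-fold higher in CF control. Scnn1a, the alpha subunit of the epithelial sodium channel and the only kept gene of its 3, had signals of 327, 418, 343 and 391. Neither pump nor sodium channel subunit named here was past 2-fold in any comparison.

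Slc12a8 and Slc26a11 were past 2-fold in some comparisons on weak grounds. Slc12a8 had a bright probe set with 760.2, 863, 1177 and 804 and a dim one with 104, 12.9, 169 and 101, and the gene's ratio of -1.42 in WT + lubiprostone over WT control came from the dim one. Slc26a11 had signals of 42.8, 196, 95.8 and 177. Among the SLC9 relatives, Slc9a8 was at -0.24.

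For each bright member, the 3 genes with the most similar pattern were sought by the Euclidean distance of log2 ratios to WT control over the other 3 arrays, among 6069 bright genes. Nearest to Slc9a3 were Bcl2l15 at a distance of 0.09, Blnk at 0.12 and 9130008F23Rik at 0.16, of which Bcl2l15 had ratios of 1.36 in CF control and 1.22 in CF + lubiprostone. Nearest to Cftr were Abca1, the cholesterol exporter, at 0.19, Cyp2c65 at 0.48 and Bst1 at 0.49. Abca1 was at -2.20 in CF control and -2.19 in CF + lubiprostone.

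Nearest to Slc4a4 were Slc38a10, Tsc22d4 and Vat1, and to Slc9a2 Ms4a7, Sema5a and Panx1. For Slc26a3 they were Lipa, Strn4 and Setd7, for Slc26a6 Arhgef16, Myo18a and Prkx, for Clcn2 Gtpbp2, Nsmf and Birc2, and for Slc12a2 Rras2, Tsen34 and Slc35a1. These distances were between 0.01 and 0.15. Genes with ratios close to 0 have many neighbours at 3 arrays, so likeness says little for Slc12a2 and Clcn2.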

How the data were processed

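RNA pools of 4 groups (1 Affymetrix mouse array each) were analysed. The deposited values are signal intensities on a linear scale, which the authors made with GCOS (the submitters' notes also name MAS5, without versions). After 2% of values was cut from either end, every array had a mean of 500.003, so the arrays had been scaled, and no detection calls were used here. Of 45101 probe sets, 34958 had 1 symbol, 932 several and 9211 were unnamed by the annotation used here. Symbols were updated by gene identifier, and those with several were not used.

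A probe set was kept if at or above the median on at least 1 array, and log2 ratios of kept probe sets were averaged per gene. A gene was counted in a comparison if a kept probe set reached the median on 1 of the 2 arrays, and 2-fold, with 3-fold as the study's threshold, was used as a size. "Bright" means at or above the 75th percentile. Where the lower signal was below its array's median, "at least" gives the fold with that signal set to the median. Genes named were the members, the 2 brightest others of each of 13 pathway lists, list genes past 2-fold with a bright signal, and for each member the 3 nearest patterns; Slc4a8, Slc12a9, Adcy3, Kcnj16, Kcnq1, Kcnn4, the scaffold list's other genes and marker genes were named after their values were seen. Members and lists, 16 marker lists included, were chosen with earlier results of these data known. Alternatives numbered 7. Steps were tested on simulated data. Python 3.11.15, numpy 2.4.6 and pandas 2.3.3 were used. The number of arrays limits the precision.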

Additional observations from a re-analysis of the deposited data

Results flagged for a closer look

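The averaged values of Ano1 lay on opposite sides of 0 in the 2 genotypes. The log2 ratio of treated over untreated was 0.98 in WT mice and -2.27 in CF mice. With 1 array per group the difference was not tested. The first value averages a dim probe set at 2.69 and the brighter one at -0.72. The brighter probe set was lower in both genotypes (-0.72 and -1.07), as was the gene once dim signals were raised to the median (-0.20 and -0.70).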

How the results depend on the processing

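No paired analysis was possible because each group is 1 array of pooled RNA and the groups share fewer than 2 replicate numbers. For the same reason no array could be left out. The 7 alternatives were quantile normalization, scaling to equal medians, dropping the filter, raising it to the 75th percentile, ratios of mean linear signals, the brightest probe set alone, and dim signals raised to the median. Of 248 values of single members under these settings, 221 moved by less than the probe set spread, 25 moved by more and 2 that were past 2-fold reversed. Both reversals were Ano1 in CF + lubiprostone over WT + lubiprostone, at 0.70 with the brightest probe set alone and 0.16 with dim signals set to the median, against -1.25. The number of members past 2-fold was 1 in WT + lubiprostone over WT control under quantile normalization, against 0, and 0 in CF + lubiprostone over CF control with the filter at the 75th percentile and with dim signals set to the median, against 1. In CF over WT control it was 2 against 3 without a filter, with the higher filter and with dim signals raised, and between the treated pools 2 against 3 with the higher filter, linear means, the brightest probe set and dim signals raised. Without a filter, Slc9a3 in CF over WT control was 0.64, because its dim probe set then enters the mean. Cftr in the same comparison was -2.01 with the brightest probe set and -1.74 with dim signals set to the median. Scaling to the same median moved the median of all genes from -0.02 to 0.16 in CF over WT control and from 0.02 to -0.11 in CF + lubiprostone over CF control. It turned the sign of Clcn2 in the first (0.11) and of Cftr in the second (-0.09; -0.07 under quantile normalization). Without the filter Slc9a3 turned to 0.02 in CF + lubiprostone over CF control and Slc4a4 to 0.14 between the treated pools, and with the brightest probe set alone Slc12a2 turned to 0.02 between the treated pools. Ano1 in WT mice turned to -0.72 with the brightest probe set and -0.20 with dim signals raised. Signals below the array median have no reliable order.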
